A study of Mus musculus with 12 samples.

Results

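Expression of 10 genes of bone morphogenetic protein (BMP) signalling was described in mouse small intestine: the homeobox factors Msx1 and Msx2, the ligands Bmp2 and Bmp4, the Id genes Id1, Id2 and Id3, and the feedback inhibitors Smad6, Smad7 and Bambi. They were taken by symbol from a table of 55421 genes, and all 10 were found in it. Msx1 was chosen by its difference between Apc-deficient and wild-type libraries in these data, so its levels against wild type are given as a description with no test. Its contrast between the Apc-deficient groups is tested, but reuses libraries that served for that choice. The other 9 were chosen by family, with earlier results of these data known.

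RNA sequencing counts came from 12 libraries, 4 in each of 3 groups. WT was wild type with no Cre allele named. Apc carried VilCreER, a tamoxifen-activated Cre recombinase driven by the villin promoter in gut epithelium, and Apc fl/fl alleles, which lose the tumour suppressor that restrains Wnt signalling. Apc Eif3h carried VilCreER, Apc fl/fl and Eif3h fl/fl, the last a gene for a subunit of translation initiation factor eIF3. The labels describe tamoxifen by intraperitoneal injection, 2 doses of 80 mg/kg given 24 hours apart. By the labels, WT was taken on day 7 and both Apc groups on day 4, although the treatment text puts harvest at 7 days for all, so genotype and day cannot be told apart in any comparison with WT, while Apc Eif3h and Apc share a labelled day. There were 3 males and 1 female in WT and likewise in Apc, while Apc Eif3h held 4 males. No age is given for the animals in the sources used here. Nothing in the labels states that each replicate was its own animal, so the p-values reflect only how these samples spread, and that spread may be technical.

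BMP ligands bind receptor serine kinases that phosphorylate Smad1, Smad5 and Smad9, which then enter the nucleus with Smad4. Id genes, Msx genes, Smad6, Smad7 and Bambi are widely used readouts of this pathway, and the last 3 feed back to dampen it. In the intestine BMP activity is high toward the villus and is held down at the crypt base by antagonists from the mesenchyme, and ligands are made by both epithelium and mesenchyme.

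Promoter sequence is shown for Msx1, the member with the largest fitted fold change between Apc and WT, and for Smad6, whose window held the complete palindromic Smad site searched for. RefSeq windows on GRCm38.p6, from 250 bases before to 50 bases after the start, were held for 6 of the 10 members (Msx1, Msx2, Bmp4, Id2, Id3 and Smad6). The first sequence is the 250 bases before the Msx1 start, chr5:37824586-37824835, minus strand, and the second runs from 96 bases before to 4 bases into Smad6, chr9:64022056-64022155, minus strand. Both read 5′ to 3′ along the gene, and capitals mark the Smad site GTCTAGAC, which the Msx1 stretch lacks.
Msx1: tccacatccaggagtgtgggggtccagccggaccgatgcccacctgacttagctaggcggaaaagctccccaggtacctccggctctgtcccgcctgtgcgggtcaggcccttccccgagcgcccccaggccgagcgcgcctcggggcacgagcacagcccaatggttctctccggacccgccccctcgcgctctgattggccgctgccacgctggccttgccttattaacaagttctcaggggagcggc
Smad6: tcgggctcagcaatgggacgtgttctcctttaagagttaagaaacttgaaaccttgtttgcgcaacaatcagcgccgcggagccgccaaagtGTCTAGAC
Both strands of each window were searched for GTCTAGAC, the GC-rich Smad1/5 site GGCGCC, the short Smad box CAGAC and the Tcf/Lef core TCAAAG. GTCTAGAC does not contain any of the other 3 on either strand. The Msx1 window held no match to any of the 4, nor did those of Msx2 and Bmp4. The Smad6 window held 1 GTCTAGAC, the Id2 window 1 GGCGCC and the Id3 window 2 CAGAC. Of 32851 promoter windows of this length, 0.213% held GTCTAGAC, 11.9% GGCGCC, 49.6% CAGAC and 16% TCAAAG. A match is a description of the letters, and the RefSeq start lay inside the GENCODE gene by 294 bases for Msx2, 325 for Id3 and 1048 for Id2.

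Library totals were 10483112 to 21298301 counts. Eif3h, the targeted gene, was at 126 to 142 CPM (counts scaled to library size with TMM factors) in WT libraries, 158 to 175 in Apc, and 28.3, 43.1, 54.6 and 25.9 in the 4 Apc Eif3h libraries. Whole-gene Apc transcripts were at 87.4 to 98.3 CPM in the WT group, 106 to 123 among Apc and 92.8 to 121 among Apc Eif3h libraries, and whole-gene counts need not show a lost exon. Epithelial markers were present in all groups, with none of 8 at 0 throughout and summed levels of 10101 to 14280 CPM in the 4 WT libraries, 8855 to 10254 in Apc libraries and 7889 to 11400 in those of Apc Eif3h. Summed levels of 11 villus enterocyte markers were 33338 to 46965 CPM among WT libraries, 14748 to 24032 among Apc and 17031 to 28826 among Apc Eif3h libraries. The 8 subepithelial mesenchyme markers summed to 414 to 630, 292 to 375 and 242 to 303 CPM, and the 10 fibroblast markers to 932 to 1903, 799.6 to 1316 and 590 to 782. In bulk tissue, fewer cells of a type and less RNA per cell cannot be told apart. The part of these shifts in the results below was not tested. Apc Eif3h replicate 2 stood apart with a summed B cell marker level of 945 CPM, against 14.3 to 16.5 in the other 3 libraries of that group.

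Msx1, a homeobox transcription factor and BMP target, was close to absent in WT and abundant in both Apc-deficient groups. The gene (ENSMUSG00000048450, GRCm38 chromosome 5, 37820485 to 37824583, minus strand) stood at 0.310, 0.712, 0.915 and 0.165 CPM in the WT libraries, from 4, 10, 11 and 2 counts. It stood at 26.4, 32.5, 36.6 and 31.9 CPM in Apc, and at 17.2, 15.97, 35.6 and 17.4 in Apc Eif3h. Every library of both Apc-deficient groups lay far above every WT library. The means were 0.525 ± 0.348 CPM in WT libraries, 31.8 ± 4.19 in Apc and 21.5 ± 9.38 in Apc Eif3h (SD, n = 4). The fold over WT fitted by edgeR was 59.5 in Apc and 40.1 in Apc Eif3h.

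Between the Apc-deficient groups, 3 of the 4 Apc Eif3h libraries lay below all 4 Apc libraries and replicate 3 lay among them. The log2 fold change of Apc Eif3h against Apc was -0.57 (SE 0.26, 95% interval -1.13 to -0.00768). This did not pass the test (edgeR quasi-likelihood, adjusted p = 0.206 over 17394 genes). The Apc libraries of this contrast also served to choose Msx1, and the effect of that choice on its p-values was not tested. Without Apc Eif3h replicate 3, the highest of its group, the log2 fold change was -0.90 with an adjusted p of 0.0124. None of the other 11 single-library omissions gave a call (adjusted p up to 0.404). That replicate had the highest Eif3h level of its group, 54.6 CPM, the highest summed villus enterocyte level, 28826 CPM, and the lowest summed level of 14 Wnt target genes, 1024 CPM. It was also the highest of its group in Msx1, Msx2, Id2, Id3, Smad6 and Smad7, 6 of the 10 genes, and the lowest in 2. Apc replicate 2 was likewise the highest of its own group in 6. The part of the differences of Apc Eif3h replicate 3 in the Msx1 result was not tested.

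**Figure D1:**
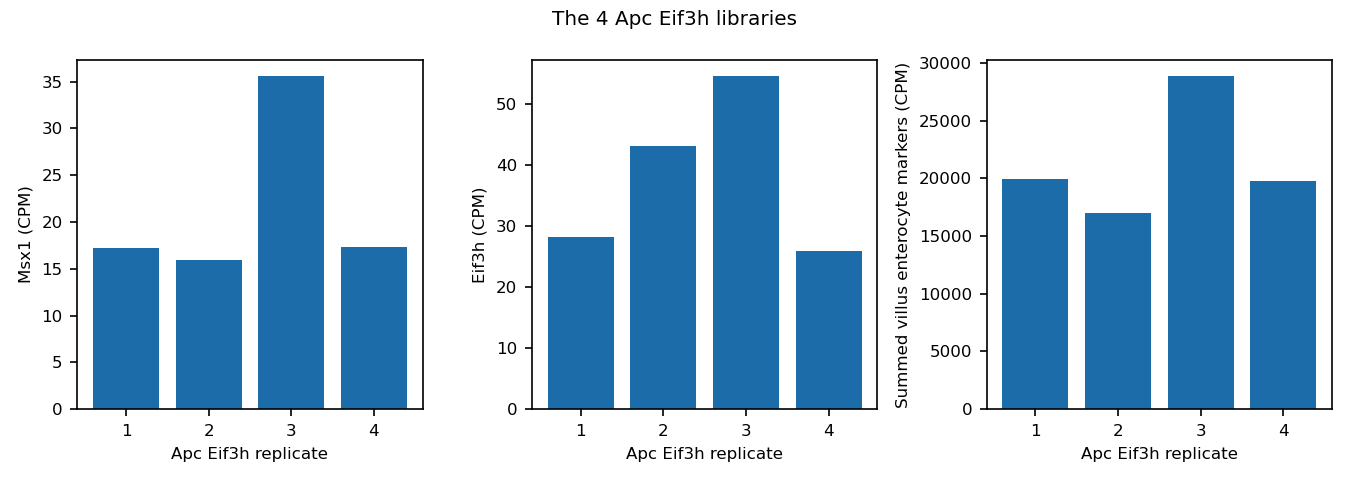
Levels in the 4 Apc Eif3h libraries of Msx1, of Eif3h and of the sum of 11 villus enterocyte markers, each in CPM on an axis from 0, with 1 bar per library and no error bar. Replicate 3 is highest in all 3 panels, with Msx1 at 35.6 against 15.97 to 17.4 in the others.

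Msx2, the paralogue of Msx1, was detected only in the Apc-deficient libraries and at very low levels. It had 0 counts in all 4 WT libraries, 2, 8, 3 and 3 counts in Apc, and 5, 1, 11 and 2 counts in Apc Eif3h. These are 0.178, 0.418, 0.163 and 0.156 CPM in Apc and 0.334, 0.0619, 0.683 and 0.0893 CPM in Apc Eif3h. A summed WT count of 0 allows up to 3 counts over the group, or 0.0587 CPM, for counting error only. Against that floor the pooled Msx2 level was 4.01-fold higher in Apc and 4.65-fold higher in Apc Eif3h. These ratios allow for counting error in WT only, so they are not lower bounds. Without Apc Eif3h replicate 3, which held 11 of the 19 counts of its group, the Apc Eif3h ratio was 2.55-fold. Without Apc replicate 2 the Apc ratio was 2.79-fold. The gene (ENSMUSG00000021469, chromosome 13, 53466884 to 53473074, minus strand) failed the filter on low counts and has no call. With no filter, over 34982 genes, its adjusted p by edgeR was 0.0406 for Apc against WT, 0.0246 for Apc Eif3h against WT and 0.928 for Apc Eif3h against Apc.

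**Figure D2:**
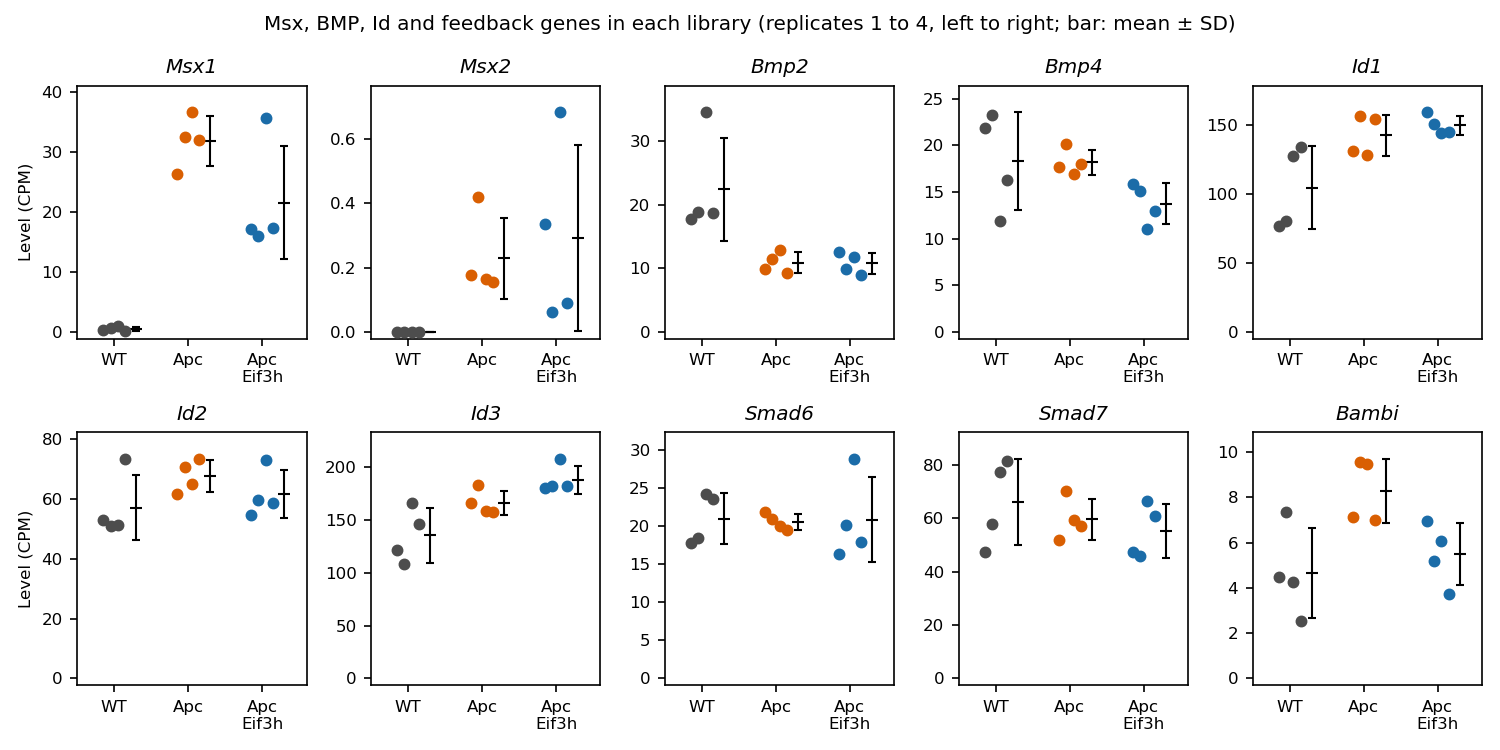
Level of each of the 10 genes in each library (vertical axis, CPM, a separate scale per gene), with replicates 1 to 4 from left to right in WT, Apc and Apc Eif3h and a bar for the mean ± SD of 4 libraries. Msx1 goes from under 1 CPM in WT to 26.4 to 36.6 in Apc, while Smad6 and Smad7 overlap across all 3 groups.

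Of the 2 ligands, Bmp2 was lower in both Apc-deficient groups than in WT and Bmp4 was not called. Bmp2 (ENSMUSG00000027358, chromosome 2, 133552159 to 133562885, plus strand) was at 17.7, 18.8, 34.5 and 18.6 CPM in the WT group, 9.88, 11.5, 12.9 and 9.24 in Apc, and 12.5, 9.90, 11.8 and 8.93 in Apc Eif3h. Every WT library was above every other library, and the Apc and Apc Eif3h libraries covered the same range. Bmp2 fell by 1.04 on the log2 scale in Apc (2.05-fold lower, SE 0.21, adjusted p = 0.00158) and by 1.06 in Apc Eif3h (2.08-fold lower, SE 0.21, adjusted p = 0.00115), both by edgeR. Apc Eif3h against Apc gave -0.02 (95% interval -0.49 to 0.45, adjusted p = 0.966). The call against WT held in all alternatives run, including without WT replicate 3, the high library.

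Bmp4, a ligand made mainly by mesenchymal cells in the gut, spanned 11.9 to 23.2 CPM in the 4 WT libraries, 16.9 to 20.1 among Apc and 11.04 to 15.8 among Apc Eif3h libraries. The gene (ENSMUSG00000021835, chromosome 14, 46383520 to 46390669, minus strand) was at 21.8, 23.2, 11.9 and 16.3 CPM in WT replicates 1 to 4. All 4 Apc Eif3h libraries were below all 4 Apc libraries. The log2 fold change between them was -0.40 (SE 0.19), which did not pass over all genes (edgeR adjusted p = 0.211). Apc against WT gave -0.01 (adjusted p = 0.956). Apc Eif3h against WT gave -0.42 (adjusted p = 0.0722), and was called without WT replicate 3 (adjusted p = 0.00759). The summed fibroblast markers were also lower in all Apc Eif3h libraries (590 to 782 CPM) than in any Apc library (799.6 to 1316), and their part in the Bmp4 values was not tested. Exons of Bmp4 overlap those of Gm15217 on the opposite strand, which held 0 to 5 counts per library, and the sources used here do not give the counting strand.

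The Id genes encode partners that bind E proteins and keep them off DNA. Id1 and Id3 were the 2 most abundant members per length and rose against WT, Id1 in both Apc-deficient groups and Id3 in Apc Eif3h. Id1 (ENSMUSG00000042745, chromosome 2, 152736251 to 152737410, plus strand) was at 76.5, 80.3, 128 and 134 CPM among WT libraries, 131, 156, 128 and 154 in Apc, and 159, 151, 144 and 145 in Apc Eif3h. WT replicates 1 and 2 lay far below all other libraries, WT replicate 4 overlapped Apc and WT replicate 3 lay just below the lowest Apc library, and all Apc Eif3h libraries lay above WT. Against WT, Id1 rose by 0.45 on the log2 scale in Apc (SE 0.17, edgeR adjusted p = 0.0386) and by 0.52 in Apc Eif3h (SE 0.17, edgeR adjusted p = 0.0174). In Apc the call was lost when any 1 of WT replicate 1, WT replicate 2, Apc replicate 2, Apc replicate 4 or Apc Eif3h replicate 3 was left out (adjusted p over all single-library omissions 0.0121 to 0.11) or when only the 2 groups were fitted (0.0576), and in Apc Eif3h without WT replicate 2 (0.0536).

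Id3 (ENSMUSG00000007872, chromosome 4, 136143497 to 136145755, plus strand) was at 121, 108, 166 and 146 CPM in WT libraries, 166, 183, 158 and 158 in Apc, and 180, 182, 208 and 182 in Apc Eif3h. All Apc Eif3h libraries lay above all WT libraries, and the log2 fold change was 0.47 (SE 0.12, edgeR adjusted p = 0.00483). Apc against WT gave 0.30 (95% interval 0.0359 to 0.554), and the adjusted p of 0.0546 by edgeR did not pass. It was called without WT replicate 3 (adjusted p = 0.00969) and with library totals in place of TMM factors (0.000361). Apc Eif3h against Apc gave 0.07 for Id1 (adjusted p = 0.834) and 0.18 for Id3 (adjusted p = 0.397).

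Id2 (ENSMUSG00000020644, chromosome 12, 25093799 to 25097140, minus strand) was at 52.8, 50.8, 51.4 and 73.4 CPM in the WT group, 61.7, 70.7, 64.8 and 73.3 in Apc, and 54.5, 59.8, 73.0 and 58.7 in Apc Eif3h. The 3 groups overlapped, through WT replicate 4. The log2 fold changes were 0.24 for Apc against WT (adjusted p = 0.125), -0.14 for Apc Eif3h against Apc (0.555) and 0.11 for Apc Eif3h against WT (0.494), none of them called by edgeR. Without WT replicate 4, the female WT library, Apc against WT was called (adjusted p = 0.0111), as it was in the 10 male libraries alone (adjusted p = 0.0131) and with library totals (0.00317). Apc Eif3h against WT was called for Id2 with library totals too (0.31, adjusted p = 0.0332).

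WT replicates 3 and 4 had higher levels of Id1, Id3, Smad6 and Smad7 than WT replicates 1 and 2. They also had higher summed villus enterocyte markers, 46965 and 45570 CPM against 33338 and 35768. The part of that split in the Id results was not tested.

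The feedback inhibitors act at different steps. Smad6 and Smad7 are inhibitory Smads that block receptor signalling, and Bambi is a decoy receptor without a kinase domain that Wnt signalling is also known to induce. Smad6 and Smad7 were not called in any contrast, and Bambi was higher in Apc than in WT. Smad6 (ENSMUSG00000036867, chromosome 9, 63953076 to 64022059, minus strand) was at 17.7 to 24.2 CPM in the 4 WT libraries, 19.5 to 21.8 among Apc and 16.3 to 28.8 among Apc Eif3h libraries. Its log2 fold changes were -0.03 (95% interval -0.39 to 0.33, adjusted p = 0.897) for Apc against WT, 0.02 (-0.34 to 0.37, adjusted p = 0.965) for Apc Eif3h against Apc and -0.01 (-0.37 to 0.35, adjusted p = 0.955) for Apc Eif3h against WT. Smad7 (ENSMUSG00000025880) spanned 47.4 to 81.5 CPM among WT libraries, 51.6 to 70.0 among Apc and 45.7 to 66.4 among Apc Eif3h libraries. Its log2 fold changes in the same order were -0.15 (-0.53 to 0.23, adjusted p = 0.5), -0.11 (-0.49 to 0.27, adjusted p = 0.745) and -0.26 (-0.64 to 0.12, adjusted p = 0.222). Each of these intervals includes 0, which does not show that the levels are equal.

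Bambi (ENSMUSG00000024232) was at 4.49, 7.33, 4.24 and 2.55 CPM in WT libraries, 7.12, 9.56, 9.46 and 7.01 in Apc, and 6.95, 5.20, 6.08 and 3.75 in Apc Eif3h. WT replicate 2 overlapped Apc, and all 4 Apc Eif3h libraries were below all 4 Apc libraries. Apc against WT gave 0.83 on the log2 scale (1.77-fold, SE 0.27, edgeR adjusted p = 0.0235). The call was lost when any 1 of WT replicates 1, 3 and 4 or Apc replicates 2 and 3 was left out (adjusted p over all single-library omissions 0.00405 to 0.0629) and in the male libraries alone (0.0697). Apc Eif3h against Apc gave -0.61 (SE 0.27, adjusted p = 0.189) and Apc Eif3h against WT 0.22 (adjusted p = 0.531), neither called by edgeR.

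**Figure D3:**
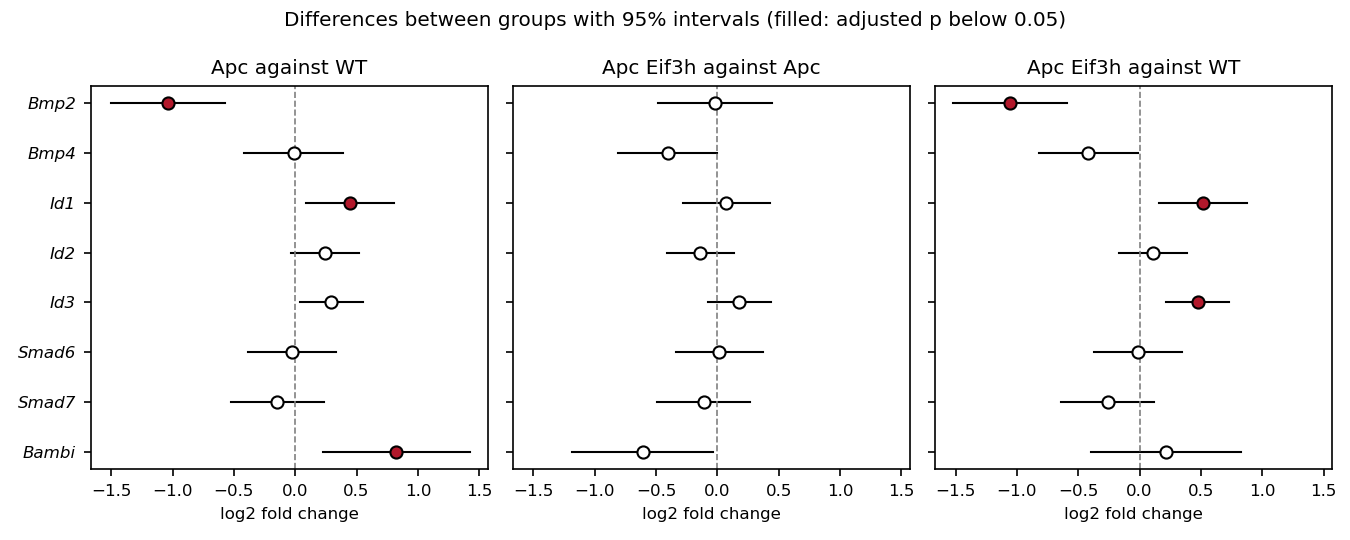
Log2 fold changes (horizontal axis) of the 8 tested members other than Msx1 in the 3 contrasts, with lines for 95% intervals and filled points for an adjusted p below 0.05. Bmp2, Id1 and Bambi are filled in Apc against WT, none in Apc Eif3h against Apc, and Bmp2, Id1 and Id3 in Apc Eif3h against WT.

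Over the 8 tested members other than Msx1, Apc against WT gave 2 higher and 1 lower, or 37.5%, against 51.8% of all 17394 genes tested (27.7% higher and 24.1% lower). Apc Eif3h against WT also gave 2 higher and 1 lower, against 57.8% of all genes (29.8% higher and 28.1% lower). In Apc Eif3h against Apc, edgeR and DESeq2 called 0 of 9, Msx1 included, against 7.05% of all genes by edgeR (4.27% higher and 2.78% lower). At an unadjusted p below 0.05, 3 of the 9 passed in that contrast (Msx1, Bmp4 and Bambi, each lower), where 23.5% of all genes did. Of these, Msx1 was chosen with the Apc libraries of the same contrast. The shares called were below those over all genes in each contrast. The median log2 fold changes of the 8 were 0.12, -0.07 and 0.05 for Apc against WT, for Apc Eif3h against Apc and for Apc Eif3h against WT, beside -0.01, -0.00 and -0.03 over all genes. All 3 groups of values share libraries, since each group enters 2 contrasts.

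Per kilobase of exon, the scale on which levels of different genes can be set side by side, the Id genes led in all groups. In WT the order was Id1 at 90.1 ± 26.2 CPM per kb, Id3 at 75.6 ± 14.5, Id2 at 23.4 ± 4.47 and Smad7 at 14.6 ± 3.58 (SD, n = 4), and the ranges of Id1 and Id3 overlapped. Bmp4 at 8.15, Smad6 at 6.54 and Bmp2 at 6.31 CPM per kb followed with overlapping ranges, then Bambi at 0.918, Msx1 at 0.170 and Msx2 at 0. In Apc, Msx1 stood at 10.3 ± 1.35 CPM per kb, between Smad7 at 13.2 and Bmp4 at 8.08, and its range overlapped both. In Apc Eif3h it was at 6.95 ± 3.03, and its range overlapped those of its neighbours Smad7 at 12.2 and Smad6 at 6.49. Id1 and Id3 were at 123 and 92.8 CPM per kb in Apc and at 129 and 105 in Apc Eif3h, with ranges apart in both. Bmp2 was at 3.06 in Apc and 3.03 in Apc Eif3h, above Bambi at 1.63 and 1.08, and Msx2 was last at 0.0698 and 0.0890 CPM per kb.

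**Figure D4:**
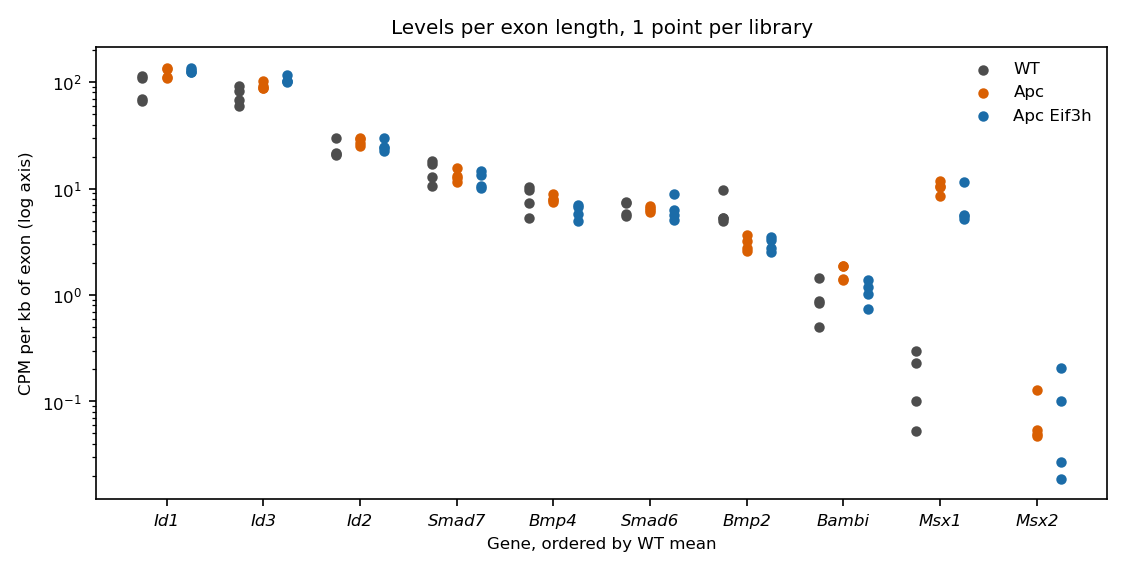
CPM per kilobase of exon on a log axis for the 10 genes, ordered by their WT mean, with 1 point per library coloured by group and libraries at 0 not drawn. Msx1 moves from 0.170 on average in WT to 10.3 in Apc, beside Smad7 and Bmp4, while Id1 and Id3 stay on top.

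Genes whose pattern over the 12 libraries was most like that of a member were found by the root mean square difference of log2 CPM centred per gene, as a description. Nearest to Msx1 were Pla2g5 (0.598), AC079441.1 (0.643), Cited1 (0.682), Etv4 (0.841) and Gm45336 (0.868). Pla2g5, a secreted phospholipase, was at 1.61 ± 0.458 CPM in the WT group, 90.3 ± 22.4 in Apc and 64.0 ± 20.0 in Apc Eif3h. Etv4, an ETS transcription factor, had a higher mean in Apc Eif3h than in Apc, at 43.6 ± 11.1 against 34.4 ± 9.06 CPM. Nearest to Bambi were Cracr2a (0.232), Ogdhl (0.269) and Proser3 (0.276), nearest to Id1 Syt12 (0.140), Tdg (0.152) and Abt1 (0.158), and nearest to Id3 Txnl1 (0.107), Gm11560 (0.108) and Btf3 (0.111). Among the members themselves Id1 and Id3 were closest, at 0.165.

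The rest of the pathway was read from 45 further genes in 5 lists, of which 37 were tested. Against WT, Apc libraries had 4 higher and 12 lower (43.2%, median log2 fold change -0.15), and Apc Eif3h libraries had 2 higher and 11 lower (35.1%, median -0.26), where 51.8% and 57.8% of all genes tested were called. Apc Eif3h against Apc had 2 higher and 3 lower (13.5%, median -0.08), where 7.05% of all genes were called. With library totals in place of TMM factors, which moves the median of all genes in Apc against WT to 0.22, the split there was 8 higher and 7 lower. The same scaling moved the share of all calls that were higher from 53.5% to 74.0% in Apc against WT, from 60.6% to 49.8% in Apc Eif3h against Apc, and from 51.5% to 67.5% in Apc Eif3h against WT.

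Among 6 tested ligands of the list, only Bmp7 was called against WT, where 51.8% (Apc) and 57.8% (Apc Eif3h) of all genes were called. It stood at 10.5 ± 3.03 CPM in the 4 WT libraries, 30.8 ± 3.59 in Apc and 27.9 ± 4.40 in Apc Eif3h (SD, n = 4), log2 fold changes of 1.55 and 1.41 against WT (edgeR adjusted p = 4.58e-05 and 5.25e-05). The Bmp7 and Bmp2 levels moved in opposite directions in both Apc-deficient groups. Bmp3, another ligand, varied widely within both Apc-deficient groups, at 27.8 ± 1.75, 14.4 ± 8.06 and 22.9 ± 14.1 CPM, and was not called. All Apc libraries (up to 23.9 CPM) lay below all WT libraries (from 25.6 CPM), with a log2 fold change of -0.94 (edgeR adjusted p = 0.0728).

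Of 10 tested receptors and co-receptors, the main receptors Bmpr1a and Bmpr2 were not called, at 118, 125 and 111 CPM and at 65.3, 61.4 and 58.5 CPM in WT, Apc and Apc Eif3h. The co-receptor Rgmb was at 72.2 ± 11.01 CPM among WT libraries, 148 ± 9.27 in Apc and 106 ± 3.88 in Apc Eif3h. It rose by 1.03 on the log2 scale in Apc and by 0.56 in Apc Eif3h against WT, and fell by 0.47 from Apc to Apc Eif3h (edgeR adjusted p = 0.0175, 0.0648 without Apc replicate 3 and 0.0502 without Apc Eif3h replicate 4). Its relative Rgma was lower than WT by 0.94 in Apc and 1.04 in Apc Eif3h, at 11.5 ± 1.61, 5.97 ± 0.874 and 5.58 ± 0.279 CPM. Acvrl1, an endothelial receptor, fell by 0.72 and 0.84 against WT, and the summed endothelial markers were at 148 to 260 CPM in WT libraries, 129 to 163 among Apc and 112 to 148 among Apc Eif3h libraries. Acvr2a, a type II receptor, was at 55.8 ± 5, 41.1 ± 4.08 and 57.3 ± 5.97 CPM, lower in Apc than in WT (-0.44, edgeR adjusted p = 0.0031, but 0.0523 with library totals) and higher in Apc Eif3h than in Apc (0.48, edgeR adjusted p = 0.0167, but 0.0573 without Apc replicate 3). Acvr2a, Acvrl1, Bmpr1a and Rgma share exon bases with opposite-strand genes, so their counts are uncertain.

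The 4 signal transducers did not move together. Smad1 fell by 0.51 in Apc and 0.48 in Apc Eif3h against WT (edgeR adjusted p = 0.007 and 0.00813, the first 0.0587 with library totals), Smad5 rose by 0.33 in Apc (edgeR adjusted p = 0.00212), and Smad4 was not called, at 126 ± 16.3, 135 ± 21.6 and 130 ± 13.2 CPM. Smad5 shares exon bases with Gm27301 on the same strand, so its counts are uncertain too. Of 11 tested secreted antagonists, 4 fell in Apc against WT, among them Nog, Chrdl1 and Nbl1, while 7 fell in Apc Eif3h against WT and none rose. Over all genes, 24.1% and 28.1% were called lower in these contrasts. Nbl1 was at 53.5 ± 4.27, 30.3 ± 3.37 and 30.4 ± 4.14 CPM. Grem1, the best-known crypt-base antagonist, was at 61.6 ± 12.6, 54.9 ± 16.5 and 52.7 ± 16.9 CPM and was not called. Nog was under 2 CPM throughout, and its call in Apc was lost in 5 of the 12 single-library omissions (adjusted p up to 0.0911).

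From Apc to Apc Eif3h, 2 of the 11 tested antagonists fell and 0 rose, where 2.78% of all genes were called lower and 4.27% higher. Chrd fell by 0.93 (edgeR adjusted p = 0.0185) and Fstl1 by 0.87 (edgeR adjusted p = 0.0385). Chrd was at 2.61 ± 0.475 CPM in Apc and 1.36 ± 0.223 in Apc Eif3h, and shares exon bases with Thpo. Fstl1 was at 65.7 ± 15.2 and 35.9 ± 2.09 CPM. The Fstl1 call was lost in 8 of 12 single-library omissions (adjusted p up to 0.102), and the Chrd call without Apc replicate 3 or Apc Eif3h replicate 4 (up to 0.0653). Antagonists come mainly from mesenchyme, whose summed markers were at 292 to 375 CPM in Apc against 242 to 303 in Apc Eif3h, and their part in these values was not tested.

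Of 6 intracellular negative regulators, 4 fell and 1 rose in Apc against WT, where 24.1% of all genes fell and 27.7% rose. Tob1, which represses BMP Smads, was at 202 ± 32.7, 112 ± 10.3 and 143 ± 31.8 CPM and fell by 0.85 in Apc (edgeR adjusted p = 0.000664). Ppm1a, a phosphatase of Smads, fell by 0.58 in Apc (edgeR adjusted p = 0.00122). Ski was at 97.7 ± 2.6 CPM in the WT group, 88.0 ± 2.11 in Apc and 103 ± 2.05 in Apc Eif3h, called lower in Apc than in WT (-0.15) and higher in Apc Eif3h than in Apc (0.23), though with library totals the first difference turned to 0.0800. The Ski calls were lost in 8 and 7 of the 12 single-library omissions, respectively, and those of Smurf1 (0.23) and Skil (-0.42) in Apc against WT in 5 and 7.

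**Figure D5:**
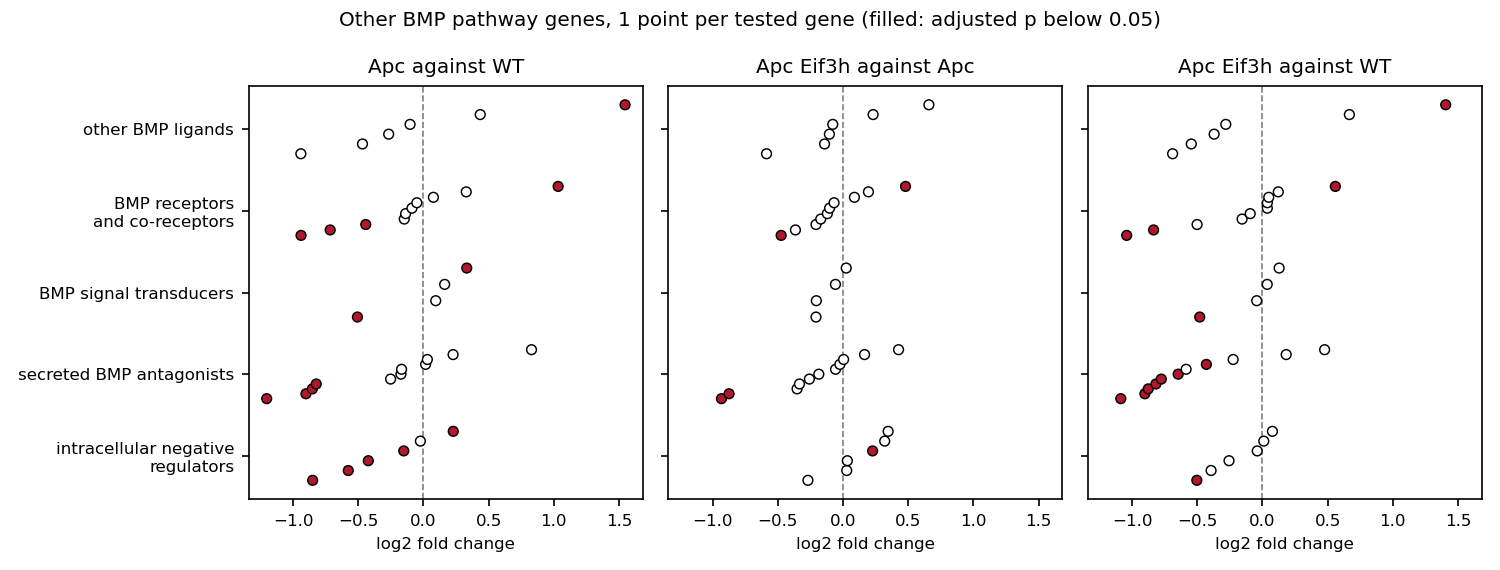
Log2 fold change (horizontal axis) of the 37 tested further pathway genes by list in the 3 contrasts, 1 point per gene, filled where the adjusted p is below 0.05. Secreted antagonists that were called lie left of 0 in each panel, and Bmp7 is the filled ligand near 1.5 in both contrasts with WT.

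Of the E proteins that Id proteins bind, Tcf3 and Tcf12 rose and Tcf4 was not called in either Apc-deficient group. Over all genes, 27.7% were called higher in Apc against WT and 29.8% in Apc Eif3h against WT. Tcf3 was at 65.2 ± 5.42 CPM in the 4 WT libraries, 96.5 ± 4.85 in Apc and 96.8 ± 7.87 in Apc Eif3h, 0.57 higher on the log2 scale in each. Tcf12 was at 60.7 ± 4.14, 102 ± 15.2 and 91.2 ± 8.56 CPM, 0.75 and 0.59 higher. The 4 rises had adjusted p-values of 0.000111 to 0.000584 by edgeR. Of 3 other BMP targets tested, 1 was called higher and 1 lower in Apc against WT, where 51.8% of all genes were called. Atoh8 was higher (0.55, edgeR adjusted p = 0.0356) and Hey1 lower (-0.70, edgeR adjusted p = 0.0459), both lost in several single-library omissions (adjusted p up to 0.0939 and 0.107). In Apc Eif3h against WT, Hey1 and Id4 were called lower and 0 higher, where 28.1% of all genes were called lower. Hey1 kept that edgeR call in all 12 single-library omissions (adjusted p up to 0.0162). Id4, at 12.1 ± 2.53 CPM in WT and 8.25 ± 0.997 in Apc Eif3h, lost it in some (up to 0.0977). Exons of Id4 overlap opposite-strand genes. In the TGF-beta and activin branch, 5 of 10 rose and 1 fell in Apc against WT, where 51.8% of all genes were called. The largest rise of that list was that of the receptor Tgfbr2 at 75.7 ± 13.0, 174 ± 35.7 and 161 ± 47.8 CPM. The activin subunit Inhba was the 1 gene of the 10 called in Apc Eif3h against Apc, where 7.05% of all genes were called. Inhba was at 7.48 ± 2.33 CPM in Apc and 3.11 ± 0.176 in Apc Eif3h (log2 fold change -1.28, edgeR adjusted p = 0.0106).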

How the data were processed

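The deposited table gives raw whole-number counts for each gene in 12 libraries. Per the labels' protocols, RNA was made into TruSeq libraries and read from both ends. Tools in the submitters' processing notes are HISAT2 2.1.0, featureCounts 1.6.4, Trim Galore 0.6.4 and FastQC 0.11.8, with the build GRCm38. How strand and multiply mapped reads were handled is not given in the sources used here. Symbols, positions and exon lengths came from GENCODE M21 (55240 identifiers matched) and promoters from RefSeq.

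The test was edgeR (4.0.16, under R 4.3.3), with genes kept by filterByExpr, TMM factors and a quasi-likelihood fit of all 12 libraries with 1 mean per group. The 17394 genes passing the filter were adjusted by Benjamini-Hochberg in each of 3 contrasts, and an adjusted p below 0.05 was a call. Standard errors were the absolute log2 fold change over the square root of F. Levels are CPM after TMM scaling, and pattern distances were taken on log2 CPM (prior count 2). Replicates of a group differed beyond sampling noise in all pairs (at least 16.5 for chi-square per gene).

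The members, lists, tests and the pathway genes given with values were chosen with earlier results of these data known. Named pathway genes were the 4 most abundant of a list and members of counts of 5 or fewer, and others named were chosen after their values were seen. Alternatives were library totals, DESeq2 1.42.0, no filter, 2-group fits, sex as a term, male libraries only, a replicate block, and leaving out each library. Leaving out libraries for the Msx2 ratios to the WT floor was added after the data were seen. The procedure was checked on simulated counts. No column of per-sample values was left out (0 unused).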

Additional observations from a re-analysis of the deposited data

Results flagged for a closer look

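In 5 of the 30 groups of 4 libraries examined, 1 library lay far from the other 3 (its gap to the nearest neighbour, as a share of the group's range, exceeded Dixon's 95% critical value). The critical value is set for about 1 in 20 independent, normally distributed groups. The groups here share libraries, so the count cannot be set against that rate. Msx1 was at 35.6 CPM in Apc Eif3h replicate 3, with the next library at 17.4. Id3 was at 208 CPM in the same library, next to 182. Bmp2 was at 34.5 CPM in WT replicate 3, next to 18.8. Id2 was at 73.4 CPM in WT replicate 4, next to 52.8. Msx2 was at 0.418 CPM in Apc replicate 2, next to 0.178, a difference of 8 counts against 2.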

How the results depend on the processing

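Of the calls against WT, those of Bmp2 kept direction and call under every alternative run, whereas those of Id1 and Bambi did not. The Id3 call in Apc Eif3h against WT held in all 12 single-library omissions (edgeR adjusted p up to 0.0164). Msx1 is left out of the counts of members that follow. Members called higher in Apc against WT numbered 4 with library totals in place of TMM factors and 1 in fits of the 2 groups alone, and 0 to 2 when single libraries were left out. In Apc Eif3h against WT they numbered 1 to 2 higher and 1 to 2 lower over such omissions. Same-numbered replicates of 2 groups had correlations of deviations of -0.14 to 0.24. Differently numbered replicates were not compared, so these values cannot decide whether samples were paired. With a replicate block 2 members were lower in Apc Eif3h against WT, the added one being Bmp4.

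Further pathway genes called with library totals were 8 higher and 7 lower in Apc against WT, 7 higher in Apc Eif3h against WT and 1 higher in Apc Eif3h against Apc. That last count was also 1 with no filter, in 2-group fits, with sex as a term and with the replicate block, and 0 in male libraries. Over single-library omissions it was 0 to 2 higher and 0 to 3 lower.

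Differences near 0 changed sign. With library totals, Apc against WT gave 0.20 for Bmp4, 0.21 for Smad6, 0.0933 for Smad7 and 0.0800 for Ski, and Smad6 gave -0.0244 against Apc and 0.186 against WT in Apc Eif3h. With no filter, Bmp4 gave 0.0037 in Apc against WT and Smad6 0.0135 in Apc Eif3h against WT. Bmp4 gave 0.0044 in the 2-group fit and 0.0279 with the replicate block in Apc against WT, and Smad6 gave -0.0132 with that block in Apc Eif3h against Apc. For Smad6 in Apc Eif3h against WT, sex as a term gave 0.0332 and male libraries 0.0468, and in Apc against WT male libraries gave 0.0015 for Smad6 and 0.0311 for Smad7. Over single-library omissions, Apc against WT spanned -0.17 to 0.12 for Bmp4 and -0.10 to 0.0464 for Smad6. Apc Eif3h against Apc spanned -0.10 to 0.0735 for Bmp2 and -0.16 to 0.12 for Smad6, and Apc Eif3h against WT -0.19 to 0.0875 for Smad6. The cause was not tested. Of 43 pathway gene contrasts followed through the alternatives, 27 kept direction and call in all alternatives and 30 in all single-library omissions. Counts of 0 to 11 limit Msx1 in WT and Msx2 in all groups.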
